A study of Mus musculus with 6 samples.

Results

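Morf4l2 and Morf4l1 are the 2 mouse MRG genes described here, out of 13932 genes with read counts, and 30 of 151811 splice junctions carried their names. They were found by gene name in the gene and junction tables, and were picked with earlier results of the same S34F against WT comparison known. The values that chose them were those of a 77 nt noncoding exon of Morf4l2, which had the lowest edgeR p of 8595 cassette exons (Benjamini-Hochberg adjusted p = 0.0597, quasi-likelihood test). Differences of both genes between the genotypes are therefore given as a description, with no test.

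RNA was sequenced from common myeloid progenitors, bone marrow precursors of the granulocyte, monocyte, red cell and platelet lineages. They were sorted as lineage-negative, c-Kit+, Sca-1-, CD34+ and Fc gamma receptor-negative donor cells from mice transplanted with marrow that carried the rtTA transactivator and a U2AF1 transgene, in the S34F or the WT form. Both groups had engrafted for more than 6 weeks and then received doxycycline chow, which switches on an rtTA-dependent transgene, for 5 days. Each genotype had 3 libraries, and each library held the pooled marrow of 4 to 5 mice, so the controls also carried a transgene and received doxycycline, and the spread between libraries is that between pools.

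MRG15, the product of Morf4l1, carries a chromodomain that binds methylated lysine 36 of histone H3, a mark laid down over transcribed genes. MRGX, the product of Morf4l2, shares the C-terminal MRG domain and lacks the chromodomain. Both proteins are found in the NuA4/TIP60 histone acetyltransferase complex and in SIN3 histone deacetylase complexes. U2AF1 is the small subunit of the factor that recognises the AG at the 3′ end of an intron, and S34F is a substitution found in myelodysplastic syndromes that changes which base before that AG is favoured.

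These acceptor sites are shown because the comparisons below turn on which of them was used. Each line gives the last 20 bases of the intron and the first 3 bases of the exon, 5′ to 3′ on the minus strand, from the NCBIM37 (mm9) genome. Capitals mark the last 3 intron bases, so the first capital is position -3.
Morf4l2 77 nt noncoding exon, chrX:133270159-133270181: atacctactttcctttcTAGgtt
Morf4l2 97 nt form of that exon, chrX:133270179-133270201: aaagttcatcttcattgCAGata
Morf4l2 coding exon, chrX:133269038-133269060: caatactttatgtattaCAGtgg
Morf4l2 90 nt noncoding exon, chrX:133274431-133274453: ctctttgtttgaccttcTAGgtc
Morf4l1 117 nt coding exon, chr9:89998607-89998629: tactatgctgtctgtatCAGaag
Morf4l1 89 nt coding exon, chr9:89992296-89992318: gccatgcatacactttgTAGcac
The Morf4l2 77 nt exon is preceded by TAG, and the coding exon that follows it by CAG. The coding exon holds the start codon and the whole Morf4l2 reading frame, so the 77 nt exon and the 90 nt exon before it lie in the 5′ untranslated leader.

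The 6 libraries held 46827909 to 94562984 reads counted to genes and 41003848 to 82730420 junction reads, with the deepest libraries among the WT pools. Replicate 1 of each genotype had 5714 (S34F) and 5580 (WT) reads of the Y-linked gene Ddx3y, and the other 4 libraries had 0, with 67264 to 128694 reads of Xist, the RNA of the inactive X. The gate genes Kit and Cd34 summed to 836 to 1067 CPM (counts-per-million, after TMM scaling) in S34F and 914 to 1022 CPM in WT. Ly6a, Fcgr3 and Fcgr2b, which the gate should deplete, summed to 70.8 to 127 CPM and 82.7 to 163 CPM. Of 11 listed dendritic cell and macrophage marker names, the 10 measured summed to 179 to 246 CPM in S34F and 316 to 529 CPM in WT, with no overlap. Most of that gap lay in H2-Aa (means of 13.9 in S34F and 90.3 CPM in WT), H2-Ab1 (24.6 and 82.0), H2-Eb1 (7.02 and 36.5) and Cd74 (10.5 and 42.7). Cd74 varied widely between the WT libraries, with an SD of 48.3 CPM, larger than its mean. Csf1r, the most abundant of them, had 138 and 135 CPM, and Itgax had 16.9 and 10.5 CPM. The other measured ones had lower means in S34F. The 4 megakaryocyte markers, all measured, summed to 75.3 to 108 CPM in S34F and 118 to 163 CPM in WT, also with no overlap. Most of that sum was Itga2b (means of 88.4 and 132 CPM), while Pf4 had 4.03 and 3.92 CPM. The sums of the other marker lists overlapped. Fewer cells of a type and less RNA per cell cannot be told apart in sorted bulk samples, and the part of these differences in the results below was not tested.

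Skipping of the Morf4l2 77 nt exon (mm9 chrX:133270085-133270161, minus strand) was more frequent in S34F, and the 2 sets of libraries did not overlap. The junction that joins the 90 nt exon directly to the coding exon held 228, 239 and 156 reads in S34F replicates 1 to 3 and 44, 60 and 91 reads in WT. Reads from the 77 nt exon into the coding exon numbered 1915, 1851 and 1794 in S34F and 1820, 3512 and 4476 in WT. The skipping junction thus held the larger count in the less deeply sequenced group.

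As a share of reads into the coding exon, skipping was 10.6%, 11.4% and 8% in S34F, with Wilson 95% intervals of 9.40 to 12.0%, 10.1 to 12.9% and 6.88 to 9.29%. In WT it was 2.36%, 1.68% and 1.99%, with intervals of 1.76 to 3.15%, 1.31 to 2.16% and 1.63 to 2.44%. These intervals cover counting error only. No interval of one genotype reached one of the other, and S34F replicate 3 was the lowest of its group. The means were 10.02% ± 1.80 (SD, n = 3) and 2.01% ± 0.341 (SD, n = 3), a difference of 8.01 percentage points and a ratio of 4.99. Libraries of the same replicate number differed by 8.28, 9.76 and 6.01 points. The first of these 3 differences is between the 2 pools with Y-linked reads, 1 of each genotype.

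**Figure D1:**
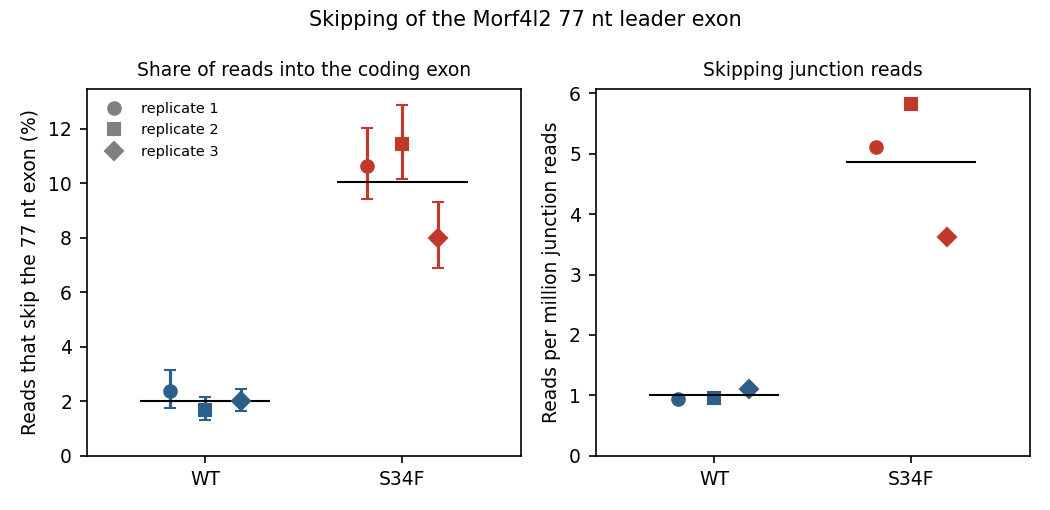
Skipping of the Morf4l2 77 nt exon in each library. Left, share of reads into the coding exon that skip the exon (%), with Wilson 95% intervals; right, skipping reads scaled to the library total of junction reads (RPM, reads-per-million); horizontal lines are group means of 3 libraries. The S34F libraries sit at 8% to 11.4%, all above the WT libraries at 1.68% to 2.36%.

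Scaled to depth, skipping reads were 4.86 ± 1.12 RPM (reads-per-million, of junction reads) in S34F and 1.00 ± 0.0849 RPM in WT (SD, n = 3 each), a ratio of 4.85. All reads into the coding exon were 48.1 ± 2.80 RPM in S34F and 50.8 ± 9.34 RPM in WT, with overlapping groups. The genotypes thus separated at the skipping junction and not in the total. Reads that included the exon were 43.3 ± 1.72 against 49.8 ± 9.30 RPM at its downstream junction and 34.2 ± 1.39 against 38.9 ± 8.49 RPM at its upstream junction, again with overlap. WT replicate 1 was the lowest WT library, with 40.1 RPM into the coding exon, against 57.2 and 55.2 RPM in replicates 2 and 3. In the authors' deposited table the skipping junction had a log2 fold change of 2.43 within its gene.

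Percent inclusion, which averages the upstream and downstream junctions, was 88.5%, 87.2% and 91.1% in S34F and 97.4%, 98.0% and 97.9% in WT. The exon was therefore kept in most transcripts of both genotypes. The means were 88.9% ± 2.01 and 97.8% ± 0.326 (SD, n = 3 each), a difference of -8.82 percentage points and a log2 odds ratio of -2.44. All S34F libraries lay below all WT libraries, a pattern seen in 11.8% of the 8595 cassette exons, and nothing is read from it because the exon was chosen on this contrast. A larger loss in points was seen in 7.24% of those exons, and a lower log2 odds ratio in 2.49%. The exon thus led by its p, and was not first by size on either scale.

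**Figure D2:**
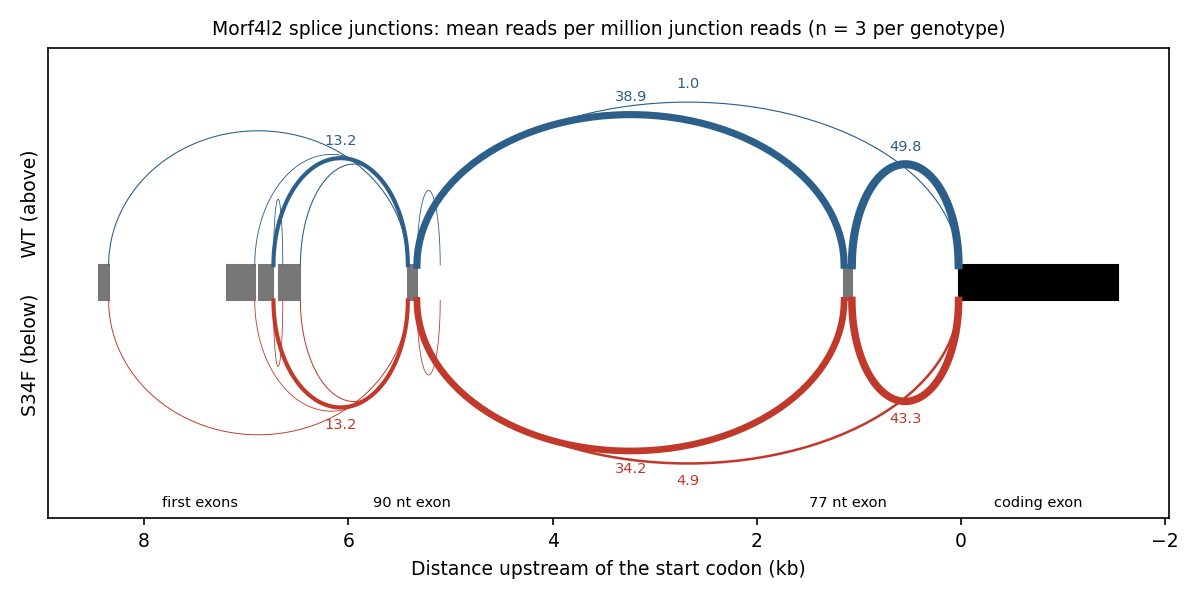
Splice junctions of Morf4l2 by distance upstream of the start codon (kb), with WT above the line and S34F below it. Boxes are exons, line width grows with the mean RPM of 3 libraries, and numbers give that mean for junctions with at least 300 reads in total; the skipping arc holds 1.00 in WT and 4.86 in S34F.

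A longer, 97 nt form of the exon starts 20 nt further upstream, at an acceptor with CAG. Its own upstream junction held 2, 1 and 0 reads in S34F and 0, 9 and 6 reads in WT, 18 in all. It shares its downstream junction and its skipping junction with the 77 nt form, and its computed inclusion of 81.8% ± 2.99 in S34F and 96.1% ± 0.659 in WT (SD, n = 3 each) rests almost wholly on those shared reads. By its own upstream reads alone the difference was -5.98 points instead of -14.2 points. Another acceptor, with CAG, between the 90 nt and 77 nt exons held 22, 3 and 8 reads in S34F and 6, 6 and 0 reads in WT, with overlap.

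The 90 nt exon (mm9 chrX:133274344-133274433), like the 77 nt exon, follows a TAG acceptor, but no junction that skips it was listed for Morf4l2. Most spliced reads into it came from the first exon that ends at chrX position 133275749, with 610, 532 and 551 reads in S34F and 551, 836 and 1187 in WT. The share of this first exon was 87.5% ± 0.897 of reads into the 90 nt exon in S34F and 85.0% ± 3.09 in WT (SD, n = 3 each). The first exon ending at 133275485 contributed 5.16% ± 0.509 and 5.77% ± 0.629, and the one ending at 133277363 contributed 4.67% ± 0.499 and 5.62% ± 1.02. Groups overlapped for these 3 first exons. The least used, ending at 133275932, held 2.64% ± 0.0368 in S34F and 3.66% ± 1.46 in WT, with all S34F libraries lower, a pattern found in 7.37% of 30084 such choices over all genes. An alternative 174 nt exon among the first exons had 3.17% ± 0.808 inclusion in S34F and 3.83% ± 0.162 in WT, with overlap, and its downstream junction is shared with an annotated first exon.

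Reads leaving the 90 nt exon outnumbered spliced reads entering it by 2.62 ± 0.127 to 1 in S34F and 2.55 ± 0.221 to 1 in WT (SD, n = 3 each). Annotated transcripts also start unspliced in the sequence just before that exon. With the 77 nt exon the leader of one annotated transcript is 334 nt long, and in the transcript that has the same first exon and lacks the 77 nt exon it is 257 nt. Both leaders hold 3 ATG triplets and both transcripts hold the same 867 nt coding sequence with its stop codon. The 77 nt exon itself has no ATG and a GC content of 41.6%.

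Of the 11 Morf4l2 junctions, 1 (the skipping junction) was higher in all S34F libraries than in all WT libraries in RPM, and 0 were lower. Of the 19 Morf4l1 junctions, 0 were higher and 0 lower without overlap. Over all junctions the shares were 6.55% higher and 6.54% lower.

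Morf4l1 has 1 measured cassette exon, a 117 nt in-frame coding exon (mm9 chr9:89998493-89998609, minus strand) that lengthens the coding sequence from 972 to 1089 nt. Its upstream junction held 38, 72 and 39 reads in S34F and 35, 67 and 96 in WT, beside 2254 to 2771 and 2481 to 4994 reads that skip it. Inclusion was 1.56%, 2.87% and 2.08% in S34F and 2.03%, 2.16% and 2.76% in WT. The groups overlapped, with means of 2.17% ± 0.656 and 2.32% ± 0.391 (SD, n = 3 each). By the downstream junction alone, the exon supplied 1.77%, 2.63% and 2.55% of reads into the next exon in S34F and 2.66%, 2.85% and 3.62% in WT. This share was lower in all S34F libraries, by a narrow gap, and the share of the junction that skips the exon was higher in all of them. Such separations were found in 7.37% (lower) and 7.48% (higher) of all donor choices. The exon's own acceptor and the next one downstream both carry CAG.

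Other Morf4l1 exons also follow TAG acceptors, and these were spliced in almost without exception. Among the 12 Morf4l1 acceptors, 5 had T, 6 had C and 1 had A at position -3. The 5 junctions that join known Morf4l1 sites in combinations absent from the annotated transcripts, each of which skips at least 1 exon, held 38, 10 and 17 reads in S34F and 17, 39 and 15 in WT. These reads were 0.0375% to 0.128% of Morf4l1 junction reads (S34F) and 0.0227% to 0.0736% (WT), with overlap. The TAG acceptor of the 89 nt exon printed above was one of those skipped: the junction that skips only this exon held 6, 6 and 0 reads in S34F and 6, 4 and 0 in WT, or 0.0936 ± 0.0813 and 0.0644 ± 0.0645 RPM (SD, n = 3 each). The junction that skips only a 102 nt exon, also after TAG, held 12, 0 and 6 reads in S34F and 0, 4 and 1 in WT. In RPM these were 0.136 ± 0.135 and 0.0254 ± 0.0340 (SD, n = 3 each), with overlap. A different 89 nt exon after TAG (chr9:89989959-89990047) was skipped alone by 3, 1 and 5 reads in S34F and 6, 6 and 0 in WT.

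Over all genes, cassette exons whose own acceptor has T at position -3, as the 77 nt exon does, were lower in all S34F libraries in 25.3% of 2933 exons and higher in 1.70%. Of 4910 exons with C there, 4.85% were lower and 9.45% higher, and of 682 exons with A, 4.40% were lower and 18.2% higher. Of the 1693 exons with T at their own acceptor and C at the downstream one, the arrangement of the Morf4l2 exon, 26.2% were lower in all S34F libraries. T stood at position -3 of 30.6% of all 129003 acceptors and C of 62.7%. These shares describe where the exon falls and were not tested.

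**Figure D3:**
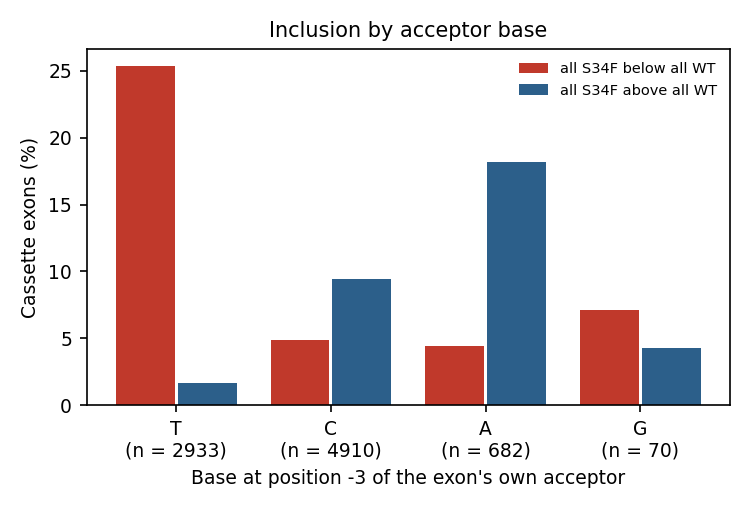
Share of cassette exons (%) whose inclusion was lower (red) or higher (blue) in all S34F than in all WT libraries, by the base at position -3 of the exon's own acceptor. The Morf4l2 77 nt exon belongs to the T group, in which 25.3% of 2933 exons were lower and 1.70% higher.

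The exons whose inclusion pattern over the 6 libraries was most like that of the 77 nt exon were a 105 nt exon of Alkbh8, a 198 nt exon of Zfp106 and a 124 nt exon of Dpy19l3. Their root mean square differences from it, after centring each on its mean, were 0.698, 0.709 and 0.823 percentage points, and their inclusion differed between genotypes by -9.41, -7.96 and -8.51 points. These are descriptions over 6 libraries among 8595 exons.

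The level of Morf4l2 (ENSMUSG00000031422, mm9 chrX:133267481-133278229) overlapped between the genotypes, unlike the splicing of its leader. Its normalised counts were 279, 310.4 and 274.6 CPM in S34F and 248.4, 312.5 and 300.5 CPM in WT. The lowest library was WT replicate 1 and the highest was WT replicate 2. The means were 288 ± 19.6 and 287 ± 34.04 CPM (SD, n = 3 each), with a log2 fold change of 0.00 ± 0.12 (SE).

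Morf4l1 (ENSMUSG00000062270, mm9 chr9:89986509-90009658) had 341.8, 344.9 and 335.7 CPM in S34F and 309.0, 441.2 and 400.55 CPM in WT. The S34F values lay close together and inside the WT range, whose lowest library was again replicate 1. The means were 341 ± 4.68 and 384 ± 67.7 CPM (SD, n = 3 each), with a log2 fold change of -0.17 ± 0.14 (SE). It was -0.30 without WT replicate 1 and -0.06 without WT replicate 2. Both genes were among the more abundant, at ranks 525 (Morf4l2) and 387 (Morf4l1) of 13905 genes by mean CPM.

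**Figure D4:**
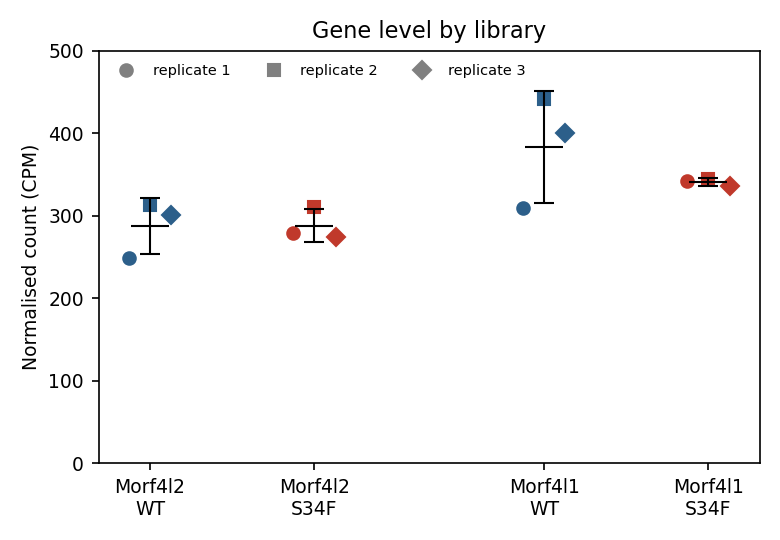
Normalised counts (CPM) of Morf4l2 and Morf4l1 in each library, with the mean and SD of 3 libraries per genotype in black. WT replicate 1 is the lowest WT library for both genes, at 248.4 and 309.0 CPM, and the genotypes overlap.

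Per kilobase of union exon (3135 nt for Morf4l2, 1981 nt for Morf4l1), Morf4l1 was 1.99-fold higher than Morf4l2, higher in 6 of 6 libraries (log2 ratio 0.99 ± 0.118, SD; exact two-sided sign-flip permutation test, p = 0.03125, the smallest that 6 libraries allow). The order depended on how length was treated. With the authors' deposited FPKM the ratio was 0.995, with Morf4l1 higher in 2 of 6 libraries (exact sign-flip permutation test, p = 0.9375). Mean reads per junction over the most used Morf4l1 junctions, against reads into the Morf4l2 coding exon, gave 1.29-fold, again in 6 of 6 libraries (exact sign-flip permutation test, p = 0.03125). The little-used Morf4l1 junctions were left out of that mean and would lower it. Which of the genes gives more RNA per length is therefore not settled by these values.

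Intronless copies of both genes lie elsewhere in the mm9 genome, and the treatment of reads that match them is not given in the sources used here. Morf4l1 has 5 copies of at least 97% identity over at least 1600 nt, the closest at 99.8%, and Morf4l2 has 1, on chromosome 19, at 98.2% over 1734 nt. The Morf4l2 copy holds the 77 nt exon, with 3 mismatches and 1 gap over a 267 nt window around it. Less similar matches to that window lie on chromosome 4 (95.8% identity) and chromosome 1 (94.0%). Reads that include the exon can match these places and reads that skip the exon match them less well, so the inclusion percentages are uncertain by the share of such reads, which was not tested. The coding sequences of the genes themselves are 78.8% identical over 641 aligned nt.

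By centred log2 CPM over the 6 libraries, the genes of mean level at least 10 CPM most like Morf4l2 were Tmem67, Mocs2 and Chchd2, with root mean square differences of 0.0192, 0.0226 and 0.0239. Those most like Morf4l1 were Fundc1, Cnot1 and Rpl36a, with differences of 0.0173, 0.0233 and 0.0252. There were 9165 candidates.

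Genes listed as partners of the MRG proteins were examined in 3 lists: 16 genes of the NuA4/TIP60 complex, 20 of the SIN3 complex and 11 listed as other partners, Msl3 among them, all 47 measured. In edgeR's quasi-likelihood test, 0 of 47 passed a Benjamini-Hochberg adjusted p of 0.05, as did 0% of all 13905 genes. At an unadjusted p under 0.05, 4 were higher and 1 lower in S34F, beside 9.1% of all genes, 4.39% higher and 4.7% lower. DESeq2 called 0 of 47, beside 0.689% of all genes. The median log2 fold change was -0.05 for NuA4/TIP60, 0.00 for SIN3 and 0.11 for the other partners, against -0.01 over all genes. Groups did not overlap for 7 of 47 genes (14.9%), 5 higher and 2 lower, against 15.6% of all genes, 7.16% higher and 8.47% lower.

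In NuA4/TIP60, Actl6a, an actin-related subunit, had 127 ± 3.83 CPM in S34F and 111 ± 4.90 in WT (SD, n = 3 each), with no overlap and an edgeR adjusted p of 0.55. Ruvbl1, an ATPase subunit, had 133 ± 4.27 and 151 ± 18.9 CPM. Mrgbp, the subunit that binds MRG proteins and is named 1600027N09Rik in the table, had 45.4 ± 1.99 and 51.1 ± 3.78 CPM. Values of Ruvbl1 and Mrgbp overlapped between groups.

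In SIN3, Rbbp7, a histone-binding subunit encoded on the X, had 349, 303 and 333 CPM in S34F and 291, 172 and 170.1 CPM in WT, with no overlap. Its log2 fold change was 0.64 ± 0.21 (SE), with an edgeR adjusted p of 0.538. Sin3b, a scaffold of the complex, had 92.4 ± 1.39 CPM in S34F and 105 ± 1.33 in WT, with no overlap and an edgeR adjusted p of 0.548. Rbbp4, the close relative of Rbbp7, had 421 ± 26.0 and 366 ± 20.3 CPM, also with no overlap (edgeR adjusted p = 0.569).

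Among the other partners, Nsd1, a methyltransferase of lysine 36 of histone H3, had 526, 507 and 503 CPM in S34F and 485, 319 and 315 CPM in WT. Its groups did not overlap, and WT replicate 1 stood near the S34F libraries, as it did for Rbbp7. Mrfap1, an MRG-binding protein, had 246 ± 5.84 and 209 ± 2.47 CPM, with no overlap. Ptbp1, a splicing regulator that has been found with MRG15, had 534 ± 20.4 and 457 ± 85.3 CPM, with overlap. The edgeR adjusted p values of these genes were 0.545, 0.538 and 0.616. Without WT replicate 1, 6 list genes were called by edgeR, all higher in S34F: Rbbp7, Nsd1, Phf12, Sap130, Arid4a and Ep400. In that fit 1172 of 13921 genes were called. Without both replicate 1 libraries, edgeR called Rbbp7 (adjusted p = 0.0214), Nsd1 (adjusted p = 0.0249) and Phf12 (adjusted p = 0.0300), again all higher, beside 599 of 13919 genes.

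**Figure D5:**
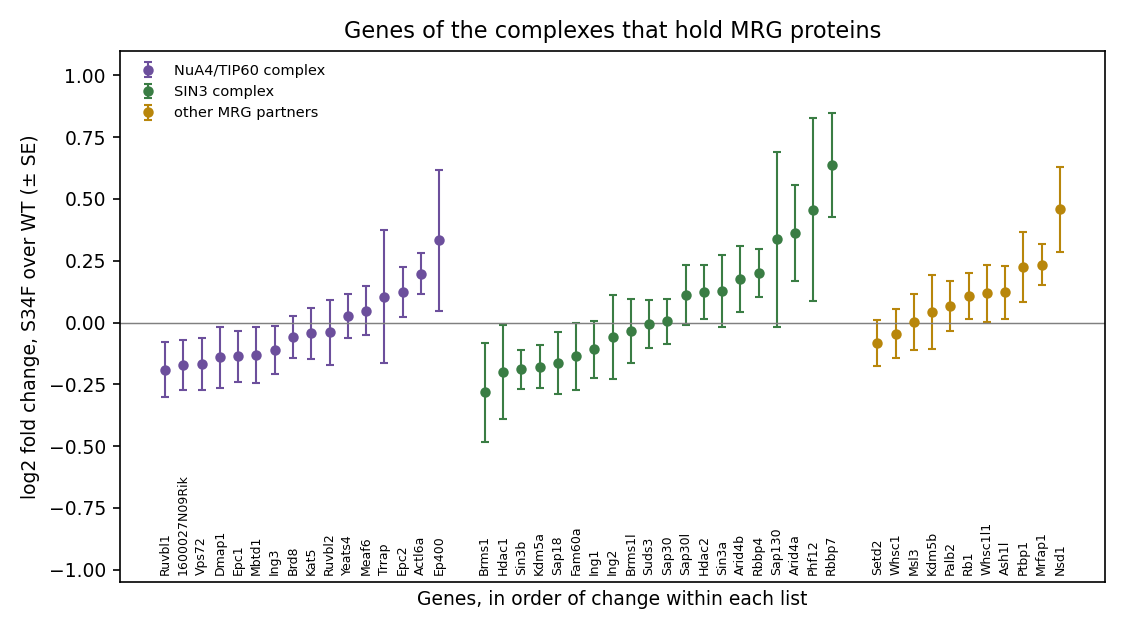
Log2 fold change, S34F over WT, with its SE, for the 47 genes of the 3 lists in order of change. Rbbp7 (0.64) and Nsd1 (0.46) are the highest of the SIN3 and other-partner lists, and no gene passed the adjusted threshold.

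Splicing of the list genes was measured at 62 cassette exons in 24 genes, and edgeR called 0 of them after adjustment, as it did 0% of all cassette exons, while DESeq2 called 0 of 62, beside 1.3% of all exons. At an unadjusted p under 0.05, 5 had lower and 1 had higher inclusion in S34F, beside 10.2% of all exons, 6.78% lower and 3.42% higher. All S34F libraries were lower for 8 of 62 exons (12.9%), near the 11.8% of all exons, and higher for 5, beside 7.46%. Some of the counted exons are forms of the same exon that share junction reads, as in Kdm5a among the lower and Ing3 and Whsc1 among the higher. The counts are therefore not of independent exons. The 4 of lowest p were in Yeats4, Meaf6, Ptbp1 and Kdm5a.

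A 93 nt exon of Yeats4, a reader of acetylated histones in NuA4/TIP60, had inclusions of 91.3%, 91.7% and 92.4% in S34F and 95.4%, 97.8% and 96.2% in WT, with no overlap (edgeR adjusted p = 0.293). Inclusion of a 58 nt exon of Meaf6, another NuA4/TIP60 subunit, averaged 14.6% ± 0.967 (S34F) and 28.2% ± 5.28 (WT; edgeR adjusted p = 0.403). A 78 nt exon of Ptbp1 was at 30.2% ± 1.01 and 40.8% ± 6.16 (edgeR adjusted p = 0.411), and a 135 nt exon of the demethylase gene Kdm5a at 84.0% ± 1.37 and 90.6% ± 3.01 (edgeR adjusted p = 0.428). Inclusion was lower in all S34F than in all WT libraries for each of these 4 exons, and none passed the adjusted threshold.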

How the data were processed

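Members, lists and tests were chosen with earlier results of these data known. Per the series text, ribosomal RNA was depleted and stranded paired reads of 100 bases were aligned to mm9 with TopHat 2.0.8. The submitters' processing notes also name Bowtie2 2.1.0, Cufflinks 2.1.1, HTSeq 0.5.4p1 and DESeq2 1.6.1, with no roles; neither the annotation nor the strand setting of the counting is stated there. Read counts per gene and per junction were deposited raw by the authors. Per the file headers the tables also hold the authors' fold change (a ratio) with its log2 value and p-values, FPKM per gene, DEXSeq values per junction (log2, p-values, a score and a mean coverage signal), and intron length. Genotypes came from sample titles, because the genotype characteristic reads S34F for all 6 samples.

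Gene counts were tested with edgeR 4.0.16 in R 4.3.3 (TMM, default filter, quasi-likelihood, Benjamini-Hochberg over 13905 genes), with DESeq2 1.42.0 as the alternative. Cassette exons of 10 to 1000 nt with at least 20 reads in every library were tested by the interaction of genotype and form within libraries. The scripts were tested on simulated data. Printed junction positions are exon bases: 0% of GT-AG introns carried these bases as printed and 99.98% after a shift of 1 base inward. Copies were found with BLAST 2.17.0. Named genes were the members with their junctions holding at least 1% of a donor's or acceptor's reads, per list the 3 genes of lowest edgeR p and any call, the 4 list exons of lowest p and any DESeq2 call, and the 3 most similar genes or exons; the 6 list genes called without WT replicate 1, and the junctions under that share, were named after their values were seen.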

Additional observations from a re-analysis of the deposited data

How the results depend on the processing

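Inclusion of the Morf4l2 77 nt exon differed by -8.01 points with the downstream junction alone, -9.79 with the upstream one, and -9.92 to -7.94 with 1 library left out. Leaving out 1 library could not change this sign, because all S34F libraries lay below all WT libraries. The exon was also chosen on this contrast, so these values show only how far the size of the difference moved. Leaving 1 library out gave -15.9 to -13.1 points for the 97 nt form, -1.12 to -0.36 for the 174 nt exon and -0.50 to 0.15 for the Morf4l1 exon, whose sign is therefore not fixed. With the upstream or downstream junction alone the 97 nt form differed by -5.98 and -8.01 points, and the Morf4l1 exon by 0.437 and -0.729 points. Log2 fold changes without 1 library were -0.09 to 0.07 for Morf4l2 and -0.30 to -0.06 for Morf4l1. The log2 level ratio was -0.00657 with the authors' deposited FPKM and 0.96 to 1.02 without 1 library, where 5 libraries cannot go below an exact p of 0.0625. Its junction-read version, 0.37, and the DESeq2 replicate block were chosen after seeing the data. Calls among list genes numbered 0 to 6 without 1 library, with 6 only without WT replicate 1, and 3 without both replicate 1 libraries (599 of 13919 genes); the cause was not tested. Calls among list exons were 0 throughout.

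Whether replicate numbers pair the libraries was not settled. Correlations of deviations between same-numbered libraries were 0.208, 0.272 and 0.0242, and 4 of 6 libraries correlated best with their own number. Only the replicate 1 libraries, of both genotypes, carried reads of the Y-linked Ddx3y. The main fits did not use the replicate number. With the replicate block edgeR called 5 genes and 0 list genes, DESeq2 called 444 genes, 2 of them in the lists (Rbbp7, log2 0.69, and Nsd1, log2 0.49), and the Morf4l2 log2 odds ratio was -2.43 against -2.44. Mean reads per coding intron could not be computed, because the Morf4l2 coding sequence lies in 1 exon.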

Other observations

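A gap of 1 base inside the Morf4l2 coding exon, at mm9 chrX position 133268290, is listed as a junction. It held 83 reads in S34F replicate 1, 85 reads in WT replicate 1 and 0 reads in the other 4 libraries. Both replicate 1 libraries also carried the Y-linked reads given above. Across all genes 177 junctions were read in the replicate 1 libraries only, 100 of them on the Y chromosome and 77 on other chromosomes.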
